A study of Mus musculus with 8 samples.

Results

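The complement genes described here are 31 components, regulators and receptors of the complement system, taken by symbol from the 33467 genes of the deposited mouse liver expression table. All 31 symbols were present once, and all 31 passed the filter on low counts, so none was left untested. The libraries came from livers of 8 wild-type C57BL/6J mice. The 4 control mice ate a standard diet for 4 weeks, and the 4 DDC mice ate a diet with 1% 3,5-diethoxycarbonyl-1,4-dihydrocollidine (DDC) for 4 weeks, a porphyrin-forming compound used to produce cholestatic injury and biliary fibrosis. Both groups carried the same batch label, and each library was made from polyadenylated RNA of whole liver tissue. Sex and age are not given in the sources used here.

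Complement is a set of plasma proteins that label and lyse targets through a protease cascade. The classical pathway starts with C1q and the proteases C1r and C1s, the lectin pathway with mannose-binding lectins and the MASP proteases, and the alternative pathway with C3, factor B and properdin. All of them converge on C3 and then on C5, whose cleavage starts assembly of the membrane attack complex from C6, C7, C8 and C9. Hepatocytes make most of the plasma components, while C1q, properdin and the receptors for the anaphylatoxins C3a and C5a are made largely by macrophages and other myeloid cells. On that textbook basis 19 members were treated as hepatocyte-made, 7 as macrophage-made, and 5 membrane proteins of several cell types were kept apart.

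Libraries held 61179103 to 81664058 gene counts. Levels are in CPM, which sets a gene's count against the library's total count, scaled by the trimmed mean of M-values (TMM) method, which assumes most genes are unchanged. Each fold change is the DDC level over the control level. The factor was 0.792 to 0.815 for the 4 controls against 1.21 to 1.27 for the 4 DDC livers. With library totals alone every log2 fold change lay about 0.62 higher, which is the shift of the median over all genes. A gene was called when its edgeR quasi-likelihood test gave a Benjamini-Hochberg adjusted p under 0.05 over all 19535 genes tested. Whole liver was measured, so fewer cells of a type and less RNA per cell cannot be told apart. DDC 1 stood apart from the other DDC livers for C1ra, C1s1, Cfp and Cr1l, and values without it stand beside those results. Over all genes too, DDC 1 differed more from the other DDC livers than these did from each other. The chi-square per degree of freedom was 89.7, 92.3 and 98.9 for DDC 1 against DDC 2, 3 and 4, and 15.9 to 22.5 among DDC 2 to 4. Controls 1 and 3 resembled each other more than they resembled controls 2 and 4, with a chi-square per degree of freedom over all genes of 13.5 between 1 and 3, 62.7 between 2 and 4 and 162 to 220.2 between the pairs. Genes reported here that divided in that way included C6, C8a, C8b, C9, C4a, Hc, Mbl2, Susd4 and Cr1l.

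Complement transcripts moved in opposite directions by source. Of the 19 hepatocyte-made members 17 fell and 0 rose, with a median log2 fold change of -1.23, against 26.6% of all tested genes called lower and a median of 0.073 over all genes. All 7 macrophage-made members rose, with a median log2 fold change of 2.59, against 30.2% of all tested genes called higher. Among the 5 membrane proteins, Cd93 and Cd55 rose, Cd59a fell, and Cr1l and Cd46 did not pass the test. The control and DDC livers did not overlap for 28 of the 31 members, against 52.6% of all tested genes. DDC livers were higher in 9 of the 28 and lower in 19, against 26.9% and 25.7% of all tested genes, and the exceptions were C3, Cr1l and Cd46. With library totals alone the medians of the hepatocyte-made and macrophage-made members were -0.61 and 3.21, and 12 of the 19 hepatocyte-made members were called lower and 3 higher, against 8.96% and 58.9% of all tested genes.

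**Figure D1:**
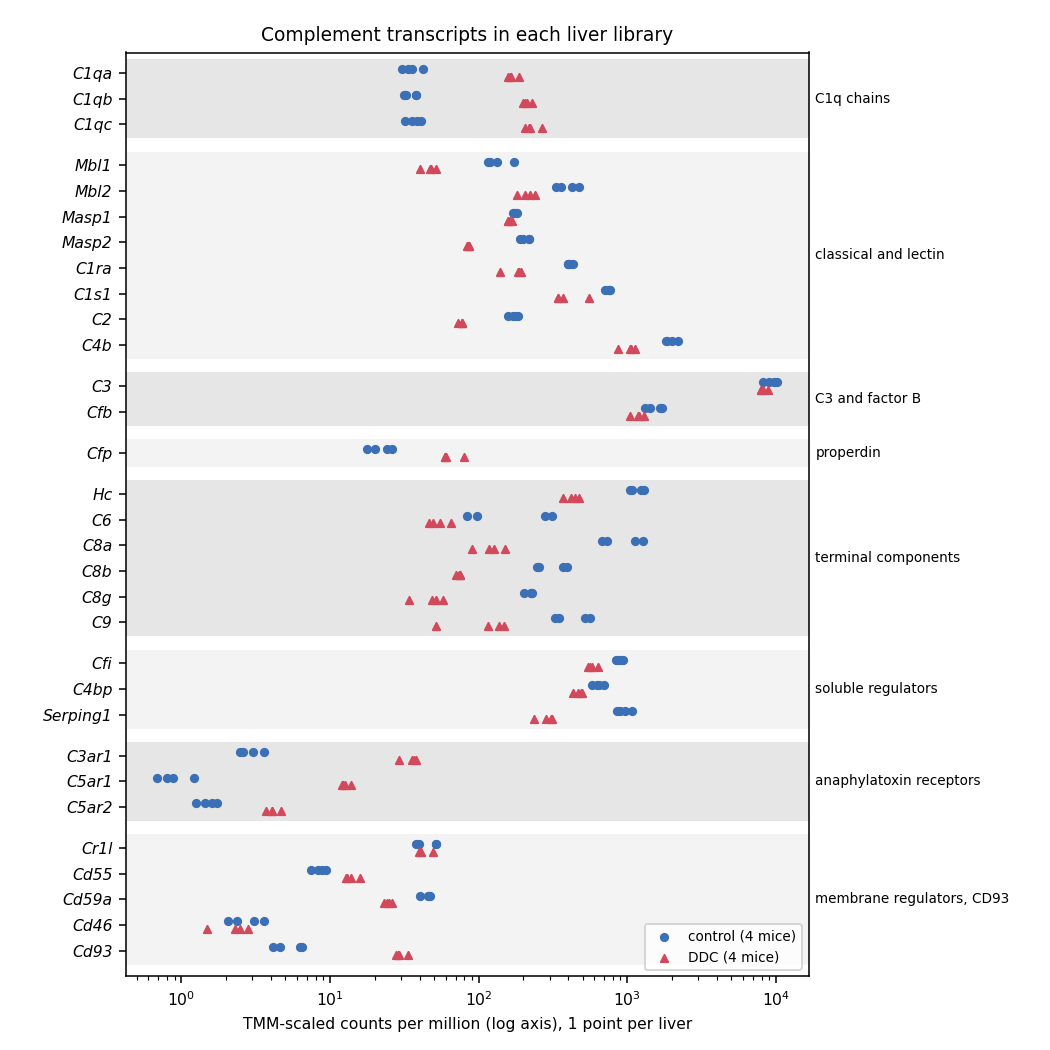
Level of each of the 31 complement transcripts in TMM-scaled CPM on a log axis, with 1 circle for each of 4 control livers and 1 triangle for each of 4 DDC livers, grouped by role. The C1q chains, properdin, the anaphylatoxin receptors and Cd93 lie to the right in DDC livers, the terminal components lie to the left, and C3, Cr1l and Cd46 overlap.

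The C1q chains, which build the recognition molecule of the classical pathway, rose together. Their genes lie side by side on the minus strand of chromosome 4 in GRCm38, with C1qb at 136880129 to 136886187, C1qc at 136889804 to 136893065 and C1qa at 136895917 to 136898803. C1qa stood at 33.6, 30.5, 35.7 and 42.0 CPM in controls 1 to 4 and at 187, 164, 158 and 164 CPM in DDC 1 to 4, a rise of 4.75-fold (log2 fold change 2.25 with SE 0.10, edgeR adjusted p = 1.92e-07). C1qb went from 32.4, 31.6, 38.0 and 38.0 CPM in the controls to 229.5, 203, 199.8 and 211 CPM in the DDC livers, a rise of 6.03-fold (log2 fold change 2.59 with SE 0.09, edgeR adjusted p = 4.20e-08). C1qc was 31.9, 35.5, 38.7 and 41.0 CPM in the controls and 266, 218, 206 and 222 CPM in the DDC livers, a rise of 6.20-fold (log2 fold change 2.63 with SE 0.11, edgeR adjusted p = 1.02e-07). In each chain the lowest DDC liver was well above the highest control, and DDC 1 was the highest library.

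The C1q chains were compared with markers of macrophages measured in the same libraries. All 7 general macrophage markers rose, against 30.2% of all tested genes called higher, a share that applies to each list here. The summed level of the 7 was 198 to 244 CPM in controls and 1474 to 1579.7 CPM in DDC livers. All 6 Kupffer cell markers rose, from a summed level of 222 to 307 CPM to one of 833 to 1206 CPM, as did all 7 markers of monocyte-derived macrophages, from 32.2 to 36.2 CPM to 536 to 623 CPM. No marker of these 3 lists was at 0 in any library. Log2 fold changes of single markers ran from 0.59 to 3.44 in the Kupffer cell list and from 0.57 to 6.93 in the monocyte-derived list. Most of the DDC sum of the monocyte-derived list was Gpnmb alone, at 2.11 to 4.71 CPM in controls and 306 to 396 CPM in DDC livers. Most of its control sum was Cd9, at 19.9 to 24.5 CPM, and Ly6c2 rose 1.48-fold with overlapping groups. The part of these cells in the C1q result was not tested.

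Promoters of the C1q chains that moved together, where RefSeq gives one, are printed 5′ to 3′ on the gene's own strand in GRCm38.p6, the minus strand for both. For C1qb these are the 250 bases before the RefSeq start site. The RefSeq start of C1qc lies inside the gene as the deposited files give it, so 151 of its 250 bases are left out and the 99 outside the gene are shown. C1qb is at chr4:136886201-136886450 and C1qc at chr4:136893066-136893164. Capitals mark the letters GAGGAA or their reverse complement TTCCTC, the core bound by PU.1 and other ETS factors.
C1qb: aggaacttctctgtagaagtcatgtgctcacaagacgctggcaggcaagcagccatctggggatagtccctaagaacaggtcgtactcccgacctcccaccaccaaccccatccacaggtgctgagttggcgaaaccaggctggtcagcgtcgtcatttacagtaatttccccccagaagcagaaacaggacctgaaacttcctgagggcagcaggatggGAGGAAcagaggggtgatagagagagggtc
C1qc: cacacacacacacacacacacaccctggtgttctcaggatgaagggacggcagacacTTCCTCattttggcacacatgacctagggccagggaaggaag
Both windows of 250 bases held 1 match, and 23.3% of all 32851 promoter windows of that length held one or more. Of the 31 members 23 were found in the promoter table, and 4 of them held these letters, the others being C5ar2 and Cd59a.

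Receptors for the anaphylatoxins rose from low levels. C3ar1, the receptor for C3a, was 3.03, 2.49, 2.61 and 3.59 CPM in controls and 36.6, 35.5, 29.2 and 38.0 CPM in DDC livers, a rise of 11.9-fold (log2 fold change 3.57 with SE 0.14, edgeR adjusted p = 8.99e-08). C5ar1, the signalling receptor for C5a, was 0.873, 0.804, 0.685 and 1.22 CPM in controls and 12.0, 12.7, 12.2 and 13.9 CPM in DDC livers and rose 14.2-fold (log2 fold change 3.83 with SE 0.19, edgeR adjusted p = 2.37e-07). It rested on 36 to 59 counts in each control and 928 to 1280 in each DDC liver. C5ar2, the second C5a receptor, lies next to C5ar1 on chromosome 7 and does not couple to G proteins. Its values were 1.61, 1.74, 1.45 and 1.26 CPM in controls and 4.09, 3.69, 4.09 and 4.66 CPM in DDC livers, a rise of 2.72-fold (log2 fold change 1.45 with SE 0.19, edgeR adjusted p = 1.23e-04). The 4 DDC livers stood above all controls for each receptor.

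Length-adjusted levels showed the C5a receptors in a different balance in the 2 groups. The ratio of C5ar1 to C5ar2 in FPKM, the authors' value scaled for gene length and library depth, was 0.747, 0.630, 0.660 and 1.35 in controls 1 to 4 and 4.06, 4.77, 4.14 and 4.14 in DDC 1 to 4. Ratios within a library do not depend on how libraries are scaled. The exact two-sided permutation test of 4 against 4 gave p = 0.0286, the smallest it can give, and 0.0364 after Benjamini-Hochberg adjustment over the 14 ratios computed, a choice of pairs made with earlier results of these data known. C5ar1 is also carried by neutrophils, for which 6 of 7 markers rose, against 30.2% of all tested genes called higher. Ly6g did not pass and was at 0 in DDC 1. The summed level of the 7 markers was 26.3 to 33.8 CPM in controls and 96.4 to 134 CPM in DDC livers. The part of neutrophils in the result was not tested.

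Cfp encodes properdin, which stabilises the alternative pathway convertase and is made by myeloid cells. It was 19.97, 17.7, 24.2 and 26.2 CPM in controls and 80.0, 59.5, 60.7 and 59.5 CPM in DDC livers, with DDC 1 highest, and rose 2.95-fold (log2 fold change 1.56 with SE 0.14, edgeR adjusted p = 1.38e-05). Without DDC 1 its log2 fold change was 1.42.

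Hepatocyte-made starters of the classical and lectin pathways fell in 7 of 8 cases, against 26.6% of all tested genes called lower. Mbl1, a mannose-binding lectin, was 116, 133, 119 and 174 CPM in controls and 40.1, 51.8, 48.0 and 46.8 CPM in DDC livers, a fall of 2.90-fold (log2 fold change -1.54 with SE 0.14, edgeR adjusted p = 9.97e-06). Mbl2, the other mannose-binding lectin, went from 472, 333, 427 and 359 to 182, 238, 204 and 221 CPM, 1.88-fold lower (log2 fold change -0.91 with SE 0.12, edgeR adjusted p = 1.78e-04), and controls 1 and 3 were the higher ones. Its call ended under 4 of the 23 alternative fits, among them library totals alone (log2 fold change -0.29, edgeR adjusted p = 0.0596). Controls 1 to 4 had an FPKM ratio of Mbl1 to Mbl2 of 0.171, 0.276, 0.193 and 0.336. Every DDC liver lay lower, between 0.147 and 0.163, so the groups stood apart (exact permutation p = 0.0286, adjusted 0.0364). That gap was small for controls 1 and 3 and wider for controls 2 and 4.

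Transcripts of the MASP genes, whose proteases act after lectin binding, parted from each other. Masp2, the main C4-cleaving enzyme of the lectin pathway, was 219, 189.9, 198 and 217 CPM in controls and 84.0, 86.0, 84.8 and 86.0 CPM in DDC livers, a fall of 2.42-fold (log2 fold change -1.27 with SE 0.06, edgeR adjusted p = 2.37e-07). Masp1, which activates MASP-2, was 172, 169.9, 182 and 179 CPM in controls and 169, 163, 157 and 157 CPM in DDC livers and did not pass (log2 fold change -0.12, edgeR adjusted p = 0.0818). Its direction depended on scaling, and library totals alone gave 0.50 on the log2 scale (edgeR adjusted p = 1.89e-05). Free of scaling, the FPKM ratio of Masp1 to Masp2 rose from 0.264, 0.301, 0.309 and 0.278 in controls to 0.676, 0.638, 0.623 and 0.616 in DDC livers (exact permutation p = 0.0286, adjusted 0.0364).

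C1ra and C1s1 encode the proteases that C1q activates and lie 6902 bases apart on chromosome 6. C1ra was 429.7, 399, 413 and 399 CPM in controls and 138, 192, 186 and 183 CPM in DDC livers, a fall of 2.35-fold (log2 fold change -1.23 with SE 0.10, edgeR adjusted p = 6.36e-06). C1s1 was 767, 703, 753 and 752 CPM in controls and 553, 369.8, 340.3 and 342 CPM in DDC livers, a fall of 1.85-fold (log2 fold change -0.89 with SE 0.15, edgeR adjusted p = 7.33e-04). DDC 1 stood apart for both, lowest for C1ra and highest for C1s1. Without DDC 1 the log2 fold changes were -1.15 and -1.10, both called. The FPKM ratio of C1ra to C1s1 was 0.557 to 0.596 in controls, 0.262 in DDC 1 and 0.544 to 0.574 in the other DDC livers, and it did not pass (exact permutation p = 0.114, adjusted 0.133). The call of C1s1 ended under 5 of the 23 alternative fits, among them library totals alone (log2 fold change -0.27, edgeR adjusted p = 0.119). C1ra and C1s1 have close copies, C1rb and C1s2, between which reads could be split.

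C4b and C2 form the C3 convertase shared by the classical and lectin pathways, and lie with Cfb in the class III region of the major histocompatibility complex on chromosome 17. C4b was 1822, 2009.6, 1845 and 2179 CPM in controls and 864, 1119, 1044 and 1059 CPM in DDC livers, a fall of 1.92-fold (log2 fold change -0.94 with SE 0.10, edgeR adjusted p = 2.59e-05). Reads of C4b could be split with its copy C4a. C2 was 183, 171, 179.6 and 158 CPM in controls and 77.3, 76.9, 77.5 and 72.9 CPM in DDC livers, a fall of 2.27-fold (log2 fold change -1.18 with SE 0.06, edgeR adjusted p = 3.59e-07). Both groups were tight for C2, and its values did not overlap.

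C3, the component on which all pathways converge, and factor B, its partner in the alternative pathway convertase changed little or did not pass. C3 was 9752, 8225, 10245 and 8974 CPM in controls and 7951, 8829, 7939 and 8169 CPM in DDC livers, with overlapping groups (log2 fold change -0.18 with SE 0.08, edgeR adjusted p = 0.0911). It passed as lower without control 2 (log2 fold change -0.24, edgeR adjusted p = 0.0267) and as higher with library totals alone (log2 fold change 0.44, edgeR adjusted p = 7.27e-04). Cfb was 1660.3, 1323, 1715 and 1412 CPM in controls and 1042, 1289, 1190.4 and 1186 CPM in DDC livers and fell 1.30-fold (log2 fold change -0.38 with SE 0.10, edgeR adjusted p = 0.0109), but library totals alone gave 0.25 on the log2 scale (edgeR adjusted p = 0.0554). Cfb and C2 lie 86 bases apart on the same strand, and exons of the gene Gm20547 overlap both, so reads could be split among them.

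Set against albumin in the same library, C3 was higher in DDC livers. The FPKM ratio of C3 to Alb, serum albumin, was 0.0346, 0.0329, 0.0377 and 0.0412 in controls and 0.0630, 0.0758, 0.0815 and 0.0825 in DDC livers. Alb itself was 2.33-fold lower in DDC livers, while C3 did not pass. Ratios of C3 to the other hepatocyte markers listed below were not computed. The log2 fold changes of those markers ran from -2.36 (Tat) to 0.24 (Trf), so another denominator could give another direction. C2 to Cfb, the paired convertase proteases of the 2 routes, went from 0.0764 to 0.0942 to 0.0435 to 0.0541. Each of these ratios stood apart between groups (exact permutation p = 0.0286, adjusted 0.0364). C3 made up 30.5% to 36.2% of the summed FPKM of the 19 hepatocyte-made members in controls and 47.3% to 49.3% in DDC livers.

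Terminal components fell in 6 of 6 cases, against 26.6% of all tested genes called lower, with a median log2 fold change of -2.03. Hc, which encodes C5, was 1047, 1231, 1075 and 1297 CPM in controls and 371, 471, 418 and 446 CPM in DDC livers, a fall of 2.73-fold (log2 fold change -1.45 with SE 0.10, edgeR adjusted p = 1.98e-06). C8a, the alpha chain of C8, fell most of the 31 members, from 729, 1134, 678 and 1284 to 90.6, 149.7, 118 and 127 CPM, or 7.88-fold (log2 fold change -2.98 with SE 0.25, edgeR adjusted p = 1.21e-05). C8b, the beta chain, was 257, 369, 247 and 390.4 CPM in controls and 75.3, 75.4, 69.9 and 73.3 CPM in DDC livers, a fall of 4.30-fold (log2 fold change -2.10 with SE 0.15, edgeR adjusted p = 2.78e-06). C8g, the gamma chain and a lipocalin, was 229.8, 203, 224 and 227 CPM in controls and 34.0, 57.6, 48.2 and 52.0 CPM in DDC livers, a fall of 4.60-fold (log2 fold change -2.20 with SE 0.15, edgeR adjusted p = 1.53e-06). All controls stood above all DDC livers for each of these 4 genes.

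C9, which forms the ring of the membrane attack complex, was 347, 518, 325 and 562 CPM in controls and 51.9, 148, 115 and 137 CPM in DDC livers, a fall of 3.88-fold (log2 fold change -1.96 with SE 0.34, edgeR adjusted p = 0.00168). C6, which binds C5b first, was 97.3, 277, 84.1 and 311 CPM in controls and 49.5, 64.7, 46.6 and 54.9 CPM in DDC livers, a fall of 3.57-fold (log2 fold change -1.84 with SE 0.46, edgeR adjusted p = 0.0107). The C6 call ended under 3 of the 23 alternative fits, among them the FPKM scale with a pseudocount of 0.1 (limma adjusted p = 0.0653). Controls 2 and 4 were higher than controls 1 and 3 for C6, C8a, C8b and C9. In omissions chosen after seeing the data, the log2 fold changes of these genes in that order were -0.76, -2.55, -1.79 and -1.58 without controls 2 and 4, and -2.45, -3.32, -2.37 and -2.26 without controls 1 and 3. Hc stood at -1.33 and -1.57 in the same omissions. All 5 were called lower both ways, and what separates these controls was not tested.

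Within each liver Hc and C9 were lower relative to C3 in the DDC group. The FPKM ratio of Hc to C3 was 0.0881, 0.123, 0.0862 and 0.119 in controls and 0.0382, 0.0438, 0.0433 and 0.0448 in DDC livers, and that of C9 to C3 was 0.0715, 0.127, 0.0639 and 0.126 and 0.0131, 0.0337, 0.0291 and 0.0338. The C8 chains, which join in equal numbers in the protein, changed unequally. C8a to C8b was 1.99, 2.15, 1.92 and 2.30 in controls and 0.843, 1.39, 1.18 and 1.22 in DDC livers, with the groups apart (exact permutation p = 0.0286, adjusted 0.0364). C8a to C8g was 1.30, 2.30, 1.24 and 2.33 in controls and 1.00 to 1.10 in DDC livers (exact permutation p = 0.0286, adjusted 0.0364), and controls 1 and 3 lay much nearer to the DDC livers than controls 2 and 4 did. C8b to C8g overlapped, at 0.647 to 1.07 and 0.768 to 1.30 (exact permutation p = 0.6, adjusted 0.6). DDC 1 was lowest for C8a, C8g and C9. Without DDC 1 the log2 fold changes of C8g and C9 were -2.09 and -1.74, both called.

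C8a and C8b lie 11131 bases apart on chromosome 4 and fell together, so their promoters are shown as the 250 bases before the start site in GRCm38.p6. C8a is at chr4:104876399-104876648 on the minus strand and C8b at chr4:104766067-104766316 on the plus strand. Capitals mark the letters TTCNNNGAA, which STAT factors bind and which read the same on both strands.
C8a: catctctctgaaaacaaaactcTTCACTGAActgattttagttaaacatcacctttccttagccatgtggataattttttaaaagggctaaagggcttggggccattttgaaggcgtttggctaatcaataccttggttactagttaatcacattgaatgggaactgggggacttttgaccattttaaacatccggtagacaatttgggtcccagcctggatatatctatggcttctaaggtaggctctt
C8b: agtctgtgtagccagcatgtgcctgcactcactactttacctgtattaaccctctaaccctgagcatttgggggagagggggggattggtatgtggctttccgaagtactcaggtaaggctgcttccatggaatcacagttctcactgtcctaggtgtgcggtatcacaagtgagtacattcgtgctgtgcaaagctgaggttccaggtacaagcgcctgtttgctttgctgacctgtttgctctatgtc
C8a held 1 match and C8b held 0, and 7.02% of all promoter windows held one. Among the 23 matched members Masp2 was the only other one with these letters. The motif of the hepatocyte factor HNF1, searched on both strands, was found in Hc and C4bp among the 23 matched members and in 0.371% of all windows. TTGCNNAA or TTNNGCAA, bound by C/EBP factors, was found in C3, C9, C1s1 and C5ar2 and in 9.56% of all windows. Motifs of HNF4, another hepatocyte factor, and of NF-kB were found in 0 of the 23 and in 0.384% and 0.356% of all windows, and the interferon-stimulated response element in Cd59a alone and in 2.98%.

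Soluble regulators fell in 3 of 3 cases, by different amounts, against 26.6% of all tested genes called lower. Serping1, the C1 inhibitor, was 899, 969, 847 and 1074 CPM in controls and 234, 305, 285 and 312 CPM in DDC livers, a fall of 3.33-fold (log2 fold change -1.74 with SE 0.11, edgeR adjusted p = 1.13e-06). Cfi, factor I, which cleaves C3b and C4b, was 928, 845, 907 and 882 CPM in controls and 545, 636, 578 and 558 CPM in DDC livers, a fall of 1.54-fold (log2 fold change -0.62 with SE 0.07, edgeR adjusted p = 4.42e-05). C4bp, which holds C4b for factor I, was 626, 649, 579.8 and 694 CPM in controls and 488, 499, 432 and 469 CPM in DDC livers, a fall of 1.35-fold (log2 fold change -0.43 with SE 0.08, edgeR adjusted p = 9.28e-04). With library totals alone Cfi lost its call (edgeR adjusted p = 0.983), C4bp was called higher at a log2 fold change of 0.19, and Serping1 stayed lower at -1.11. Under 5 more of the 23 alternative fits Cfi kept its direction but lost its call.

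Levels of the hepatocyte-made members were set beside 9 hepatocyte markers. Of these, 8 fell on TMM scaling, against 26.6% of all tested genes called lower, and Trf, transferrin, did not pass. Log2 fold changes ran from -2.36 to 0.24, with a median of -1.22. The summed level was 156863 to 187069 CPM in controls and 86180.5 to 99249 CPM in DDC livers, and most of it was Alb. In FPKM, which is not TMM-scaled, Ahsg was 2998 ± 56.1 in controls and 3722 ± 56.7 in DDC livers. Trf was 4793 ± 272 and 8682 ± 1359 FPKM (SD, n = 4 each). None of the 9 markers was at 0 in any library. Alb was 2.33-fold lower and Hnf4a, a hepatocyte transcription factor, 2.36-fold lower. The part of a change in hepatocyte number in these falls was not tested.

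**Figure D2:**
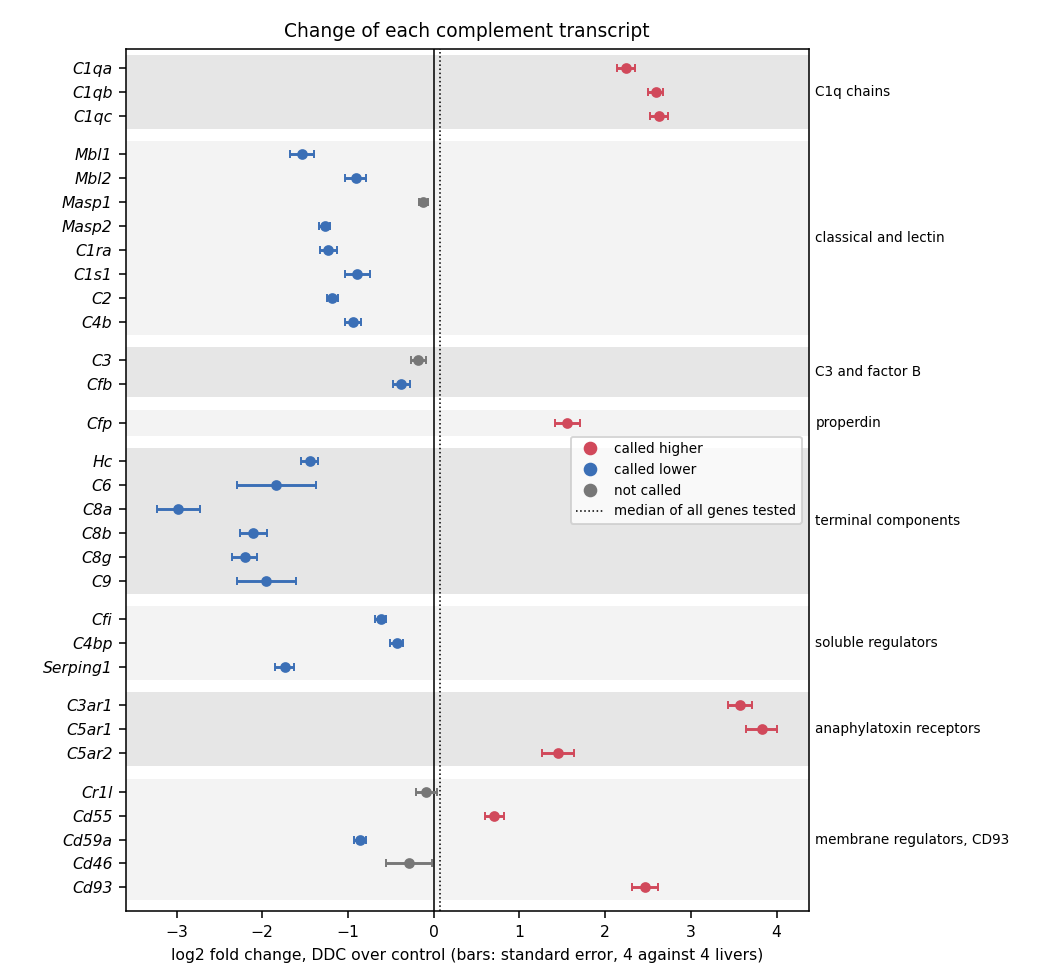
Log2 fold change of each complement transcript, DDC over control, with its standard error from the edgeR fit to 4 against 4 livers, by role. C5ar1 and C3ar1 are farthest to the right and C8a farthest to the left, and the dotted line marks the median of all tested genes at 0.073.

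Membrane regulators, which protect host cells from complement, showed no common direction. Cd55, which speeds decay of the convertases, was 8.30, 8.76, 9.42 and 7.45 CPM in controls and 16.01, 12.9, 12.7 and 13.7 CPM in DDC livers, a rise of 1.63-fold (log2 fold change 0.71 with SE 0.11, edgeR adjusted p = 4.25e-04). The Cd55 call ended under 1 of the 23 alternative fits, the test for more than 1.5-fold (edgeR adjusted p = 0.138). Cd59a, which blocks C9 assembly, was 47.0, 40.0, 46.6 and 45.8 CPM in controls and 25.1, 26.1, 24.3 and 23.1 CPM in DDC livers, a fall of 1.82-fold (log2 fold change -0.86 with SE 0.07, edgeR adjusted p = 5.34e-06). Cr1l, also called Crry, a rodent regulator of C3 convertases, was 51.8, 37.8, 51.6 and 39.4 CPM in controls and 49.1, 40.7, 40.0 and 40.5 CPM in DDC livers (log2 fold change -0.09, edgeR adjusted p = 0.563). Without DDC 1 its log2 fold change was -0.18 (edgeR adjusted p = 0.200). Controls 1 and 3 were above controls 2 and 4. Leaving out controls 2 and 4 made Cr1l a called fall (log2 fold change -0.29, edgeR adjusted p = 0.0333), while leaving out controls 1 and 3 gave 0.13 (edgeR adjusted p = 0.298). With library totals alone Cr1l was called higher (log2 fold change 0.54, edgeR adjusted p = 0.00323). Cd46, a cofactor for factor I that in mice is found mainly in testis, was at most 3.57 CPM and did not pass (edgeR adjusted p = 0.373).

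Cd93, a membrane glycoprotein of endothelial and myeloid cells once described as a C1q receptor, was 4.13, 4.59, 6.30 and 6.50 CPM in controls and 29.1, 27.6, 28.7 and 33.5 CPM in DDC livers. It rose 5.53-fold (log2 fold change 2.47 with SE 0.16, edgeR adjusted p = 1.09e-06), with every DDC liver above every control. Of 7 endothelial markers 3 rose and 4 did not pass, against 30.2% of all tested genes called higher. The median log2 fold change of the 7 was 0.38, with a summed level of 128 to 147 CPM in controls and 151 to 210.3 CPM in DDC livers. None of these markers was at 0.

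Length-adjusted levels placed C1q among the abundant complement transcripts of DDC livers. FPKM values are scaled to library depth and not by TMM, so the group means here do not give the fold changes stated above. On log2 FPKM with a pseudocount of 0.1 (filtered), the median log2 fold change over all genes lay 0.52 higher than in the main fit. C3 ranked first and Cfb second in both groups, at 1408 ± 136 and 421 ± 53.5 FPKM in controls (SD, n = 4) and 1908 ± 75.6 and 497 ± 43.1 in DDC livers (SD, n = 4). C1qa, C1qb and C1qc ranked 19, 20 and 22 of 31 in controls and 7, 5 and 10 in DDC livers. C1qb was 25.0 ± 2.31 FPKM in controls and 231 ± 13.4 in DDC livers, where its neighbours in the order were Mbl2 at 232 ± 25.5 and C4b at 214 ± 23.8, whose spreads overlapped it. C8a went from rank 7 at 204 ± 62.5 FPKM to rank 16 at 39.8 ± 7.81, and Serping1 from rank 3 to rank 9. C5ar1 was the lowest member in controls at 0.267 ± 0.0659 FPKM, and Cd46 the lowest in DDC livers at 0.355 ± 0.0927.

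The balance among the C1q chains shifted less than their levels. C1qa to C1qb was 0.983 to 1.16 in controls and 0.812 to 0.850 in DDC livers, and C1qa to C1qc was 1.59 to 1.96 and 1.30 to 1.43, with the groups apart in both (exact permutation p = 0.0286, adjusted 0.0364). C1qb to C1qc overlapped, at 1.58 to 1.81 and 1.53 to 1.72 (exact permutation p = 0.514, adjusted 0.554).

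**Figure D3:**
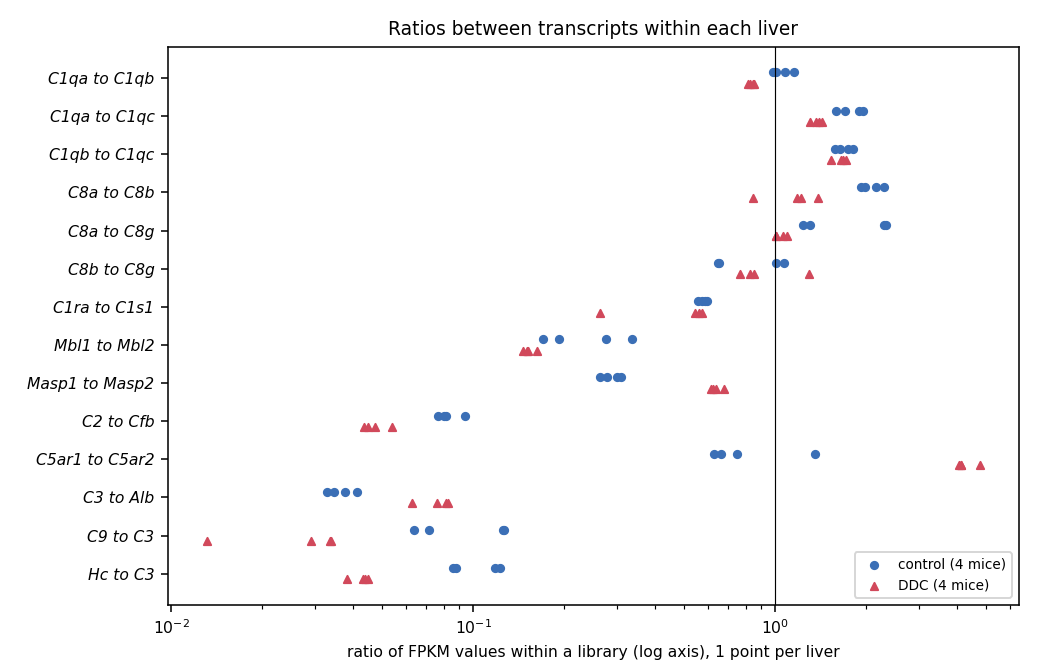
Ratios of FPKM between pairs of transcripts within each library on a log axis, with 1 circle for each of 4 control livers and 1 triangle for each of 4 DDC livers. The ratios of C5ar1 to C5ar2 and Masp1 to Masp2 lie higher in DDC livers, those of C8a to C8b, C9 to C3 and Hc to C3 lie lower, and DDC 1 lies apart for C1ra to C1s1.

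A further 28 complement genes outside the 31 were examined, of which 26 passed the filter, 15 fell and 8 rose, against 56.8% of all tested genes called in either direction. Receptors rose most. Itgam and Itgax, the alpha chains of complement receptors 3 and 4, rose 12.2-fold and 19.1-fold to 31.5 ± 2.41 and 25.6 ± 2.18 CPM (SD, n = 4 each), and their shared beta chain Itgb2 rose 6.21-fold to 73.1 ± 2.77 CPM. Vsig4, a macrophage receptor for C3b, rose 4.91-fold, from 23.0, 25.0, 29.1 and 26.6 to 158, 121, 111 and 119 CPM. Itgax and Vsig4 also stand in the macrophage marker lists above. Not every receptor rose: Cr2, complement receptor 2, did not pass (edgeR adjusted p = 0.986), with 0 to 61 counts per library. C1qbp, a C1q-binding protein, was called lower (log2 fold change -0.35, edgeR adjusted p = 0.00209).

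Vtn, Cpn1 and Susd4, regulators among these further genes, fell. Vtn, vitronectin, which blocks membrane insertion of the attack complex, fell 2.30-fold from 3099 ± 50.3 to 1344 ± 45.1 CPM (SD, n = 4 each), and Cpn1, a carboxypeptidase that inactivates anaphylatoxins, fell 2.27-fold. Susd4, a membrane protein with complement control domains, was 33.1, 59.4, 31.2 and 53.8 CPM in controls and 3.34, 1.25, 1.46 and 1.84 CPM in DDC livers and fell 22.6-fold (log2 fold change -4.50 with SE 0.39, edgeR adjusted p = 2.48e-05), with a log2 fold change of -4.04 when controls 2 and 4 were left out.

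Copies of the listed genes moved with or apart from them. C1rb fell 2.53-fold and Cd59b 2.84-fold, like C1ra and Cd59a. C4a was 30.3, 142, 32.8 and 117 CPM in controls and 12.9, 18.5, 12.0 and 16.6 CPM in DDC livers, a fall of 5.38-fold (edgeR adjusted p = 0.00876). Its controls split as those of C6 did, and leaving out controls 2 and 4 gave a log2 fold change of -1.08, while leaving out controls 1 and 3 gave -3.12. Cd55b rose 2.88-fold with overlapping groups (edgeR adjusted p = 0.0206). That call was lost under 7 of the 23 alternatives, with the largest adjusted p under limma voom (0.147), and among them without DDC 2 or DDC 4 (edgeR adjusted p = 0.0575 and 0.0550) and with the replicate block (edgeR adjusted p = 0.0899). C7, the remaining terminal component, rose 2.39-fold at a low level, from 1.56 ± 0.532 to 3.73 ± 1.45 CPM (SD, n = 4 each, edgeR adjusted p = 0.0105), opposite in direction to C6, C8a, C8b, C8g and C9. That call ended under 2 of the 23 alternatives, among them without controls 1 and 3 (edgeR adjusted p = 0.0948). Colec10, a collectin, was 38.8, 21.6, 39.4 and 25.1 CPM in controls and 12.4, 12.2, 16.5 and 11.1 CPM in DDC livers. It fell 2.39-fold (edgeR adjusted p = 9.97e-04). Controls 1 and 3 were the higher ones, and the Colec10 call ended under 1 of the 23 alternatives. Cfd, factor D, had 26 counts in control 2, 12 in control 4 and 0 in the other 6 libraries, and was not tested.

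**Figure D4:**
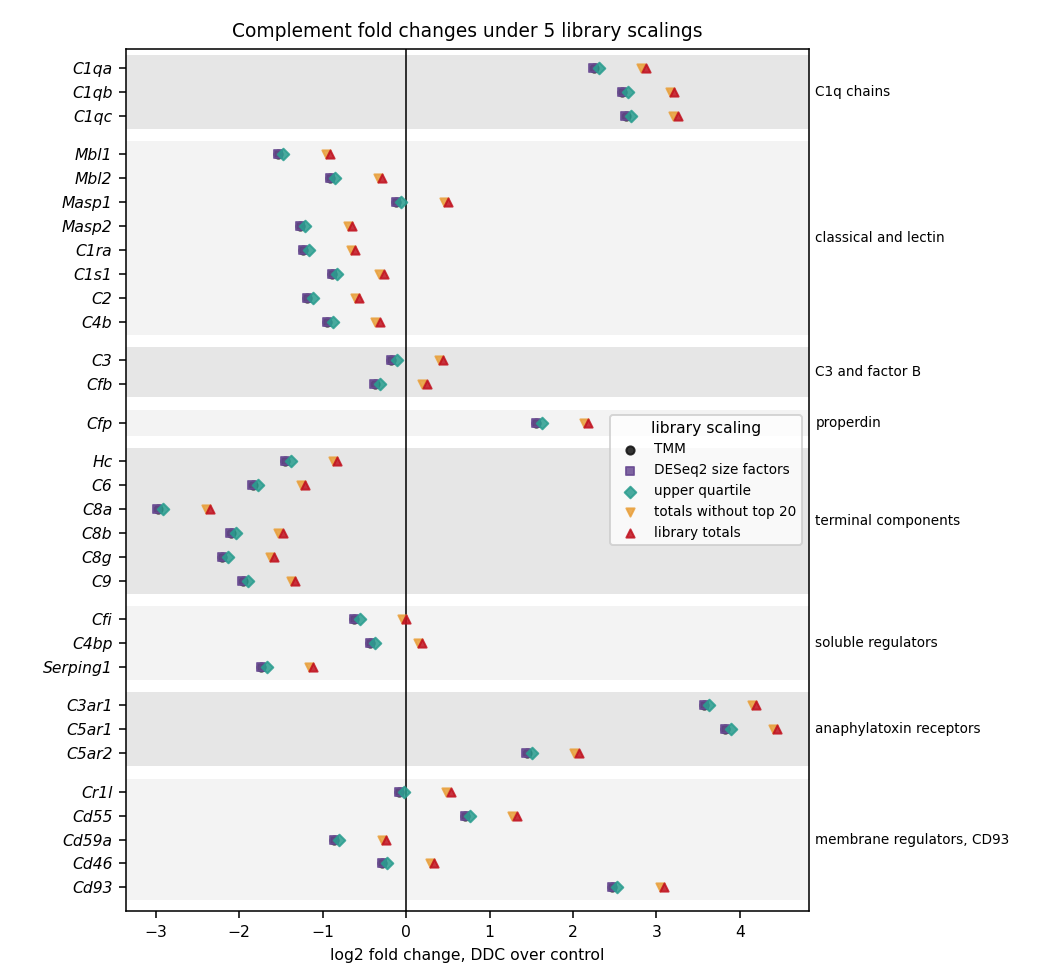
Log2 fold change of each complement transcript, DDC over control, under 5 ways of scaling libraries, each with its own marker. TMM, DESeq2 size factors and upper-quartile scaling nearly coincide, while library totals move every member to the right, so that Masp1, C3, Cfb, C4bp, Cr1l and Cd46 cross 0 and Cfi lies at 0.

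Direction was the same under all 5 scalings for the 7 macrophage-made members, for Cd93 and Cd55, and for the 6 terminal components. It changed for Masp1, C3, Cfb, Cfi and C4bp among the hepatocyte-made members, and for Cr1l and Cd46. Of the 31 members, 20 kept both direction and call under all 23 alternatives tried. They were all 7 macrophage-made members, 5 of the 6 terminal components (C6 being the exception), Mbl1, Masp2, C1ra, C2, C4b and Serping1, and the membrane proteins Cd59a and Cd93.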

How the data were processed

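Bulk RNA sequencing of 8 livers gave a count table and an FPKM table. The submitters' processing notes name HISAT2, StringTie, cutadapt, FastQC and DESeq2 without versions, and the builds GRCm38 and mm10. The deposited counts are whole numbers per gene, not normalized, for 55401 genes, and the FPKM table repeats them for 33467 genes. FPKM values were scaled by the authors for length and depth, per the file headers. The library protocol in the labels marks strand with dUTP, but no source used here says if counts were stranded, and exons of 8 members overlap those of another gene (Masp2, C1s1, C2, Cfb, Hc, C5ar2, Cd55 and Cd46).

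Counts of all genes were fitted with edgeR 4.0.16 in R 4.3.3 (TMM, filterByExpr, robust quasi-likelihood, no covariate), two-sided, with Benjamini-Hochberg adjustment. SE is the size of the log2 fold change over the square root of F. Ratios used FPKM and exact two-sided permutation over 70 assignments. Alternatives were other scalings and filters, DESeq2 1.42.0, limma 3.58.1 (voom, or log2 FPKM plus 0.1 or plus 1), testing for more than 1.5-fold, leaving out libraries and a replicate block.

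Members, source sets, gene lists and ratios were chosen with earlier results of these data known. All members are named. Further complement genes are named where called at 2-fold or more and at 1 CPM or more, with Cfd and C7 in any case, and some genes that meet this rule are not reported here. Start and end in the files equalled GENCODE M21 for 29 of 31 members. Libraries of 1 group differed by more than sampling noise. Labels give 1 mouse per library, and depth sets counting error only.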

Additional observations from a re-analysis of the deposited data

Results flagged for a closer look

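In 6 of 94 groups of 4 livers (47 complement genes, 2 groups each) 1 library lay far from the other 3, where its gap to the nearest of them exceeded Dixon's critical value as a share of the group's range. Chance flags about 1 group in 20. DDC 1 accounted for 4 of the 6. C1ra was 138 CPM in DDC 1 against 183 to 192 CPM in the other DDC livers. C1s1 was 553 CPM in DDC 1 against 340.3 to 369.8 CPM. Cfp was 80.0 CPM in DDC 1 against 59.5 to 60.7 CPM. Cr1l was 49.1 CPM in DDC 1 against 40.0 to 40.7 CPM. C2 was 72.9 CPM in DDC 4 against 76.9 to 77.5 CPM in the other DDC livers. Control 2 was low for Cd59a at 40.0 CPM, with controls 1, 3 and 4 at 45.8 to 47.0 CPM.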

How the results depend on the processing

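All 7 macrophage-made members stayed called higher under all 23 alternatives, while the number of hepatocyte-made members called lower, 17 of 19, ran from 11 to 19. It was 11 in each of the 3 limma fits on log2 FPKM (with a pseudocount of 0.1 filtered and unfiltered, and of 1). With library totals alone Cfi had a log2 fold change of 0.0017, and the signs turned for Masp1 0.50, C3 0.44, Cfb 0.25, C4bp 0.19, Cr1l 0.54 and Cd46 0.34. Totals that left out the 20 most abundant genes gave log2 fold changes of Masp1 0.45, C3 0.39, Cfb 0.19, C4bp 0.14, Cr1l 0.48 and Cd46 0.29. On log2 FPKM they were Masp1 0.49, C3 0.44, Cfb 0.24, C4bp 0.18, Cr1l 0.53 and Cd46 0.24 with a pseudocount of 0.1, the same to 2 decimals without a filter, and Masp1 0.47, C3 0.44, Cfb 0.24, C4bp 0.18, Cr1l 0.43 and Cd46 0.079 with a pseudocount of 1. Cd46 was at 0.024 without controls 2 and 4 and Cr1l at 0.13 without controls 1 and 3, against a called -0.29 without controls 2 and 4. Without controls 1 and 3 Cfb lost its call (edgeR adjusted p = 0.0901); both omissions were chosen after seeing the data. Calls over all genes were 5893 higher and 5205 lower with TMM. They were 11501 higher and 1750 lower on library totals alone, 11006 and 1914 on totals that left out those 20 genes, and 3316 and 2120 when tested against a fold of 1.5. On log2 FPKM they were 11976 and 1826 with a pseudocount of 0.1, 12283 and 1745 without a filter, and 11987 and 1815 with a pseudocount of 1. Masp1 and C3 were called lower by DESeq2 (adjusted p = 0.0392 and 0.0409), and Masp1 also without DDC 1 (edgeR adjusted p = 0.0314). Replicate numbers did not pair the livers: deviations of same-numbered control and DDC livers correlated at -0.26, -0.225, 0.03 and -0.094. With the replicate block the hepatocyte-made count stayed at 17 lower and the macrophage-made count at 7 higher, and 0 of the 31 members changed call or direction. Depth limits little here, since each control held at least 36 counts for the lowest member in controls, C5ar1.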

Other observations

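C1s2, Fcna and Clu, and Cr2 and C1qbp above, were chosen after their values were seen. C1s2, the close copy of C1s1, was 5.45, 5.45, 5.90 and 6.59 CPM in controls and 20.8, 2.56, 2.65 and 2.81 CPM in DDC livers, so DDC 1 was high for C1s2 as it was for C1s1, and the gene did not pass (edgeR adjusted p = 0.744). Fcna, a ficolin of the lectin pathway made by macrophages, was 32.2, 34.0, 39.2 and 33.4 CPM in controls and 73.5, 63.2, 57.0 and 56.5 CPM in DDC livers, a rise of 1.80-fold (edgeR adjusted p = 6.11e-05). Clu, clusterin, an inhibitor of the attack complex, rose 1.28-fold (edgeR adjusted p = 0.0167). Other cells that can make C3, C1s or Cd55 also changed in their markers. For stellate cells and fibroblasts 6 of 7 markers rose, against 30.2% of all tested genes called higher. These 7 markers summed to 229 to 353 CPM in controls and 951 to 1086 CPM in DDC livers. The same count of 6 of 7 held for cholangiocytes, whose markers summed to 83.0 to 164 CPM in controls and 722 to 1103 CPM in DDC livers. Most of the DDC sum was Spp1 alone, at 48.2 to 52.6 CPM in controls and 606 to 922 CPM in DDC livers. Krt19 did not pass (edgeR adjusted p = 0.476), with control 2 at 60.7 CPM above the DDC livers at 26.7 to 46.5 CPM. Of 6 B and T cell markers 3 rose and 3 fell, against 30.2% and 26.6% of all tested genes. The part of these cell types in the complement values was not tested.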
